A study of Mus musculus with 24 samples.

Results

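Genes that encode amino acid transporters of the liver cell surface were followed through the livers of 24 mice. They were taken by gene symbol from the deposited tables: 9 of 9 were listed, among 15741 genes listed in any table. The mice formed 8 groups of 3. The mice lacked GCN2 in the whole body (KO) or were wild type (WT), on a leucine-devoid diet (LeuD) or a control diet (Control), killed at circadian time (CT) 15 or 03. The 8 groups were thus KO LeuD CT15, KO LeuD CT03, KO Control CT15, KO Control CT03, WT LeuD CT15, WT LeuD CT03, WT Control CT15 and WT Control CT03. All mice were housed singly with free access to food, had 2 days on the control diet before the switch, and spent the final 8 days in darkness. Age, sex, strain and the knockout allele are not given in the labels used here.

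GCN2, encoded by Eif2ak4, is a protein kinase that is activated by uncharged transfer RNA when an amino acid runs short. It phosphorylates eIF2, which lowers translation in general and favours that of ATF4, the transcription factor of the integrated stress response (ISR). In cultured cells several amino acid transporter genes, Slc38a2, Slc7a1, Slc7a5 and Slc3a2 among them, are induced when amino acids are withdrawn. The liver takes up most amino acids that arrive from the gut, but it has little branched-chain aminotransferase and leaves most leucine to other tissues.

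The genes have different roles. Slc38a3 encodes SNAT3, a system N transporter of glutamine, histidine and asparagine, and Slc38a4 and Slc38a2 encode SNAT4 and SNAT2, which carry alanine and other small neutral amino acids with sodium (system A). Slc7a2 encodes CAT2, whose liver form is a low-affinity carrier of arginine, lysine and ornithine, and Slc7a1 encodes CAT1, the high-affinity carrier of many other tissues. Slc1a4 encodes ASCT1, an exchanger of alanine, serine and cysteine. Slc7a5 encodes LAT1, an exchanger that brings in leucine and other large neutral amino acids, and Slc3a2 encodes its heavy chain, CD98, which carries LAT1 and several relatives to the membrane. Slc43a1 encodes LAT3, which lets branched-chain amino acids and phenylalanine through by facilitated diffusion.

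RNA levels of the 9 genes spanned more than 3 orders of magnitude. Levels were set on 1 scale over the 24 libraries as normalized counts (reads divided by a size factor per library) and compared between genes per kilobase of annotated exon. Slc38a3 had a mean level of 14709 normalized counts per kb and Slc38a4 one of 11040. Slc7a2 had 2019, Slc38a2 741.4 and Slc3a2 542.1 normalized counts per kb. Slc43a1 had 98.4, Slc1a4 70.5, Slc7a5 44.0 and Slc7a1 8.71 normalized counts per kb. The library ranges of neighbours in this order overlapped, except that Slc38a4 (lowest library 7592 per kb) stood above Slc7a2 (highest 4398 per kb), Slc3a2 (lowest 344.8 per kb) above Slc43a1 (highest 228.6 per kb) and Slc7a5 (lowest 27.7 per kb) above Slc7a1 (highest 19.9 per kb). The heavy chain gene Slc3a2 was thus above its light chain gene Slc7a5, at 27.7 to 82.5 normalized counts per kb, in every library. Slc7a1 rested on 25 to 164 reads per library, so counting error adds to its spread; the other 8 genes had at least 42 reads in each library. In bulk liver, fewer cells of a type and less RNA per cell cannot be told apart.

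**Figure D1:**
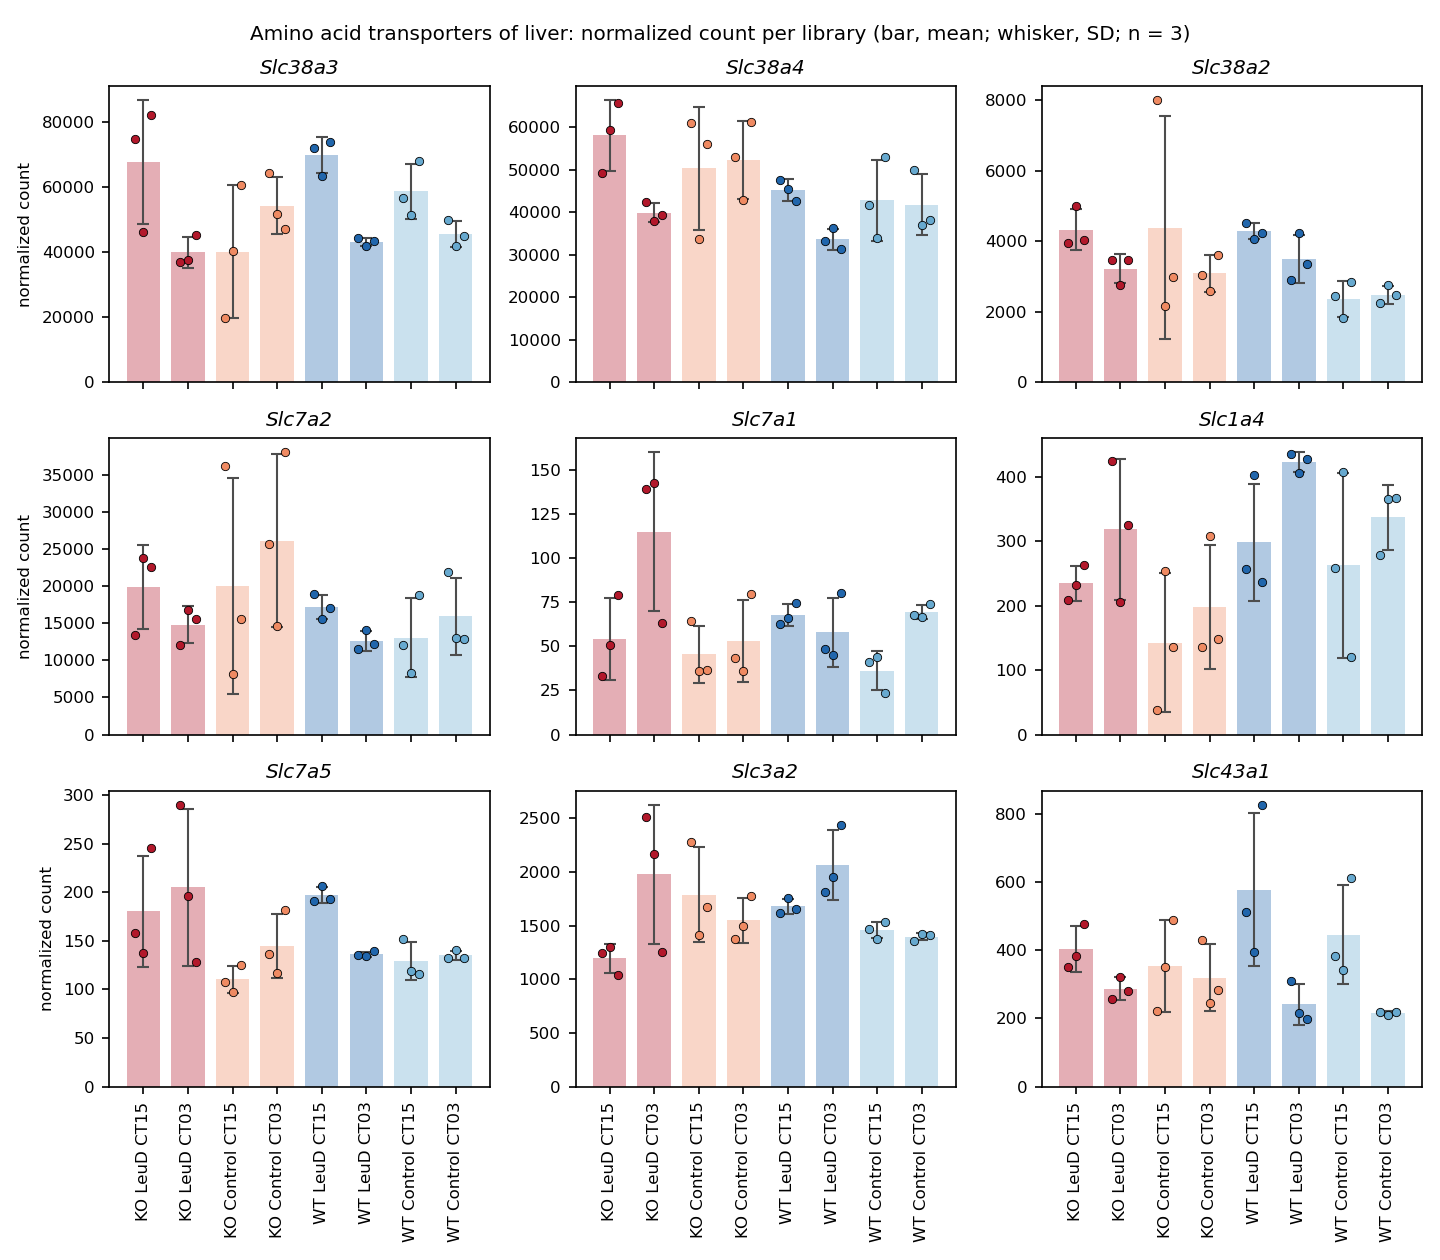
Normalized count (vertical axis, 1 scale over the 24 libraries) of each of the 9 transporter genes in the 8 groups (horizontal axis); bars are group means, whiskers the SD and points the single libraries (n = 3). The KO Control CT15 points are spread widely for Slc38a3 (19631 to 60517), Slc38a2 (2153 to 7995) and Slc1a4 (37.5 to 253), whereas the WT LeuD CT03 points for Slc38a3 lie between 41708 and 44208.

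Across the 8 groups, the highest and the lowest group means of each gene were as follows. Slc38a3 averaged 69629 ± 5571 normalized counts in WT LeuD CT15, its highest group, and 39862 ± 4707 in KO LeuD CT03, its lowest (SD, n = 3 each). Slc38a4 averaged 58094 ± 8301 in KO LeuD CT15 and 33596 ± 2466 in WT LeuD CT03, and Slc7a2 averaged 26194 ± 11703 in KO Control CT03 and 12625 ± 1340 in WT LeuD CT03. Slc43a1 averaged 577.5 ± 223 in WT LeuD CT15 and 215.6 ± 5.71 in WT Control CT03. Slc7a5 averaged 204.8 ± 81.1 in KO LeuD CT03 and 110.4 ± 14.1 in KO Control CT15, and Slc7a1 averaged 115.2 ± 45.0 in KO LeuD CT03 and 36.2 ± 11.1 in WT Control CT15. Slc3a2 averaged 2063 ± 327 in WT LeuD CT03 and 1194 ± 135 in KO LeuD CT15. Slc1a4 averaged 422.9 ± 15.2 in WT LeuD CT03 and 142.5 ± 108 in KO Control CT15. For these 8 genes the highest and lowest groups did not overlap. Both groups were picked as the extremes of the same 8 means, so this separation is no test of a difference. The share of all genes with such a separation was not taken. Slc38a2 averaged 4378 ± 3159 in KO Control CT15 and 2367 ± 509 in WT Control CT15, which overlapped. Between neighbours in the order of the 8 groups, the libraries overlapped in all 7 pairs for Slc7a1, Slc7a2, Slc7a5, Slc38a2, Slc38a3 and Slc43a1, and in all but 1 pair for Slc3a2, Slc38a4 and Slc1a4.

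Libraries held 34137121 to 44884200 reads in listed genes. Of 12 hepatocyte markers 12 were listed, at a summed 99165.8 to 199812.8 RPM (reads scaled to library size), with 164817.5 to 199812.8 RPM in the KO LeuD libraries. Pancreas acinar transcripts, which mark another organ, took 285.7 to 15762.4 RPM in 5 libraries and at most 74.9 RPM in the other 19. The 5 were KO LeuD CT03 replicate 1, KO LeuD CT15 replicate 3, WT LeuD CT15 replicate 1, KO Control CT15 replicate 1 and KO Control CT03 replicate 3. Of 21 such markers with reads recovered everywhere, 0 were at 0 reads in the 5 libraries and also in most of the other 19. In each of WT Control CT15 replicates 2 and 3, 9 were at 0 reads, such as Clps and Sycn. Eif2ak4 lay between 243.2 and 462.4 normalized counts in the 12 KO livers and between 287.3 and 348.7 in the 12 WT livers, but reads summed over a whole gene do not check the loss of an exon, so they are no check of the genotype labels.

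The diet comparisons asked what the leucine-devoid diet changed at each time. No transporter gene passed the test within a single pair of groups, while Slc7a5 RNA was higher on LeuD when the diet effect was averaged over the 4 combinations of genotype and time. Tests were made with limma within each deposited table on log2(normalized count + 1), adjusted by Benjamini-Hochberg across every gene listed there, and calls were made below an adjusted p of 0.05. Limma called 0 of the 9 genes in each diet comparison, and edgeR on the recovered reads also 0. At an unadjusted p under 0.05 there were 2 of 9 in KO at CT15, 1 in KO at CT03, 3 in WT at CT15 and 3 in WT at CT03, against 16.0%, 14.6%, 13.0% and 17.8% of all genes. Among all genes, limma called 0.0202% in KO at CT15, 0.0% in KO at CT03, 0.186% in WT at CT15 and 2.24% in WT at CT03. The median log2 change of the 9 genes was 0.24 in KO at CT15, 0.07 in KO at CT03, 0.35 in WT at CT15 and 0.01 in WT at CT03, against −0.01 to 0.00 over all genes. All changes, 9 of 9, were positive in WT livers at CT15. Erythroid markers also moved with the diet, at a summed 78.2 to 275.5 RPM in LeuD livers and 212.2 to 461.7 RPM in Control livers, and their part in these values was not tested.

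Slc38a2, the system A gene known for its induction by amino acid shortage, had 3803, 4844 and 3911 normalized counts in the KO LeuD livers at CT15, against 7738, 2102 and 2903 in the KO Control livers. The 3 LeuD livers lay inside the range of the Control livers, of which 1 was far above the rest. At CT03 the KO LeuD livers had 3417, 2734 and 3417 normalized counts, against 3013, 2572 and 3585 in KO Control livers, again with overlap. On LeuD, WT livers at CT15 had Slc38a2 at 4761, 4268 and 4444 normalized counts, against 2564, 1921 and 2966 on Control. The WT groups at CT15 did not overlap, and the log2 change was 0.88 ± 0.16 (SE, limma adjusted p = 0.0926). At CT03 the WT livers had 2896, 4216 and 3348 on LeuD, against 2235, 2742 and 2467 on Control, with no overlap and a log2 change of 0.48 ± 0.14 (limma adjusted p = 0.131). The authors' deposited table gave Slc38a2 a log2 fold change of 0.85 at CT15 (adjusted p = 0.000128), where 3.7% of its genes passed 0.05. The authors' deposited table at CT03 gave it 0.49 (adjusted p = 0.037), where 7.22% passed. Averaged over both genotypes and times, the limma change of Slc38a2 was 0.41 ± 0.15 (adjusted p = 0.0787). Without KO Control CT15 replicate 1, the high Control liver, this average was 0.55 ± 0.09 (limma adjusted p = 0.00049), and without the 5 libraries with acinar transcripts it was 0.57 ± 0.10 (limma adjusted p = 0.00293). EdgeR gave 0.35 (adjusted p = 0.143). Over all libraries left out in turn the limma average was 0.31 to 0.55, with adjusted p-values of 0.00049 to 0.137.

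Slc3a2, the CD98 heavy chain gene, had a diet change below 0 in KO livers and above 0 in WT livers at CT15, and neither passed. Its KO LeuD livers had 1196, 1258 and 1010 normalized counts, against 2200, 1381 and 1628 in KO Control livers. Every KO LeuD liver was below every KO Control liver, with a log2 change of −0.57 ± 0.20 (limma adjusted p = 0.238). This change was −0.38 without KO Control CT15 replicate 1 (limma adjusted p = 0.279) and −0.29 without the libraries with acinar transcripts (adjusted p = 0.565). Its WT LeuD livers had 1705, 1843 and 1738 normalized counts, against 1534, 1452 and 1607 in WT Control livers, so that every WT LeuD liver was higher (0.20 ± 0.09, limma adjusted p = 0.405). The difference of the diet effects, KO minus WT, was −0.77 ± 0.22 (limma adjusted p = 0.205) and did not pass. Across alternatives and libraries left out, its adjusted p was between 0.098 and 0.457. At CT03 Slc3a2 had 2482, 2152 and 1241 normalized counts in KO LeuD livers, against 1362, 1486 and 1762 in KO Control livers, which overlapped. Slc3a2 in WT livers at CT03 had 1809, 1938 and 2425 on LeuD, against 1358, 1419 and 1405 on Control. Those WT groups did not overlap, and the log2 change was 0.55 ± 0.12 (limma adjusted p = 0.0523, and 0.0491 without WT LeuD CT03 replicate 1). The authors' deposited table gave Slc3a2 a log2 fold change of 0.56 there (adjusted p = 0.00247). Averaged over the 4 conditions, its diet effect was 0.12 ± 0.10 (limma adjusted p = 0.451).

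Slc7a5, the LAT1 gene, had 152.2, 133.0 and 237.8 normalized counts in KO LeuD livers at CT15, against 104.6, 95.2 and 122.0 in KO Control livers. The groups did not overlap, and the log2 change was 0.66 ± 0.26 (limma adjusted p = 0.28). With 1 library left out it was 0.41 to 0.83, and without the libraries with acinar transcripts 0.40 (limma adjusted p = 0.614). In KO livers at CT03 it had 287.1, 194.3 and 127.0 on LeuD, against 135.4, 116.4 and 179.8 on Control, with overlap. Slc7a5 in WT livers at CT15 had 200.7, 216.6 and 202.7 on LeuD, against 158.7, 125.9 and 121.5 on Control. The 3 WT LeuD livers lay above all Control livers, with a log2 change of 0.62 ± 0.16 (limma adjusted p = 0.188). The WT values at CT03 were nearly level, at 135.5, 133.6 and 138.9 on LeuD, against 132.3, 140.1 and 132.0 on Control. Over all 24 libraries the average diet effect on Slc7a5 was 0.43 ± 0.12 on the log2 scale (limma adjusted p = 0.0199). Of all genes, 13.9% were called in this average, which was added after the values were seen. Among libraries, acinar transcripts moved with Slc7a5 in some groups and not in others. The highest Slc7a5 values in KO LeuD livers at both times came from the libraries with 15762.4 and 8323.9 RPM of acinar markers. KO Control CT03 replicate 3 (285.7 RPM) also had the highest Slc7a5 of its group. By contrast, WT LeuD CT15 replicate 1 (4568.3 RPM) had the lowest of its group, and KO Control CT15 replicate 1 (714.3 RPM) lay between its mates. Without the 5 libraries with acinar transcripts the average diet effect was 0.35 ± 0.10 (limma adjusted p = 0.0309).

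Slc7a1, the CAT1 gene, had 31.8, 49.1 and 76.7 normalized counts in KO LeuD livers at CT15, against 62.3, 35.2 and 35.4 in KO Control livers, with overlap. In KO livers at CT03 it had 138.1, 141.6 and 62.4 on LeuD, against 42.9, 36.0 and 79.0 on Control. A pair of the KO LeuD livers was above all Control livers and the other was not, and the log2 change was 1.09 ± 0.42 (limma adjusted p = 0.315). WT livers at CT15 had Slc7a1 at 65.9, 69.7 and 78.2 on LeuD, against 43.3, 46.2 and 24.7 on Control, with no overlap and a log2 change of 0.93 ± 0.29 (limma adjusted p = 0.246). In WT livers at CT03 the change of Slc7a1 went the other way, at −0.31 ± 0.26 (limma adjusted p = 0.583). It averaged 57.9 ± 19.6 there on LeuD and 69.6 ± 3.80 on Control (SD), with overlap. Its average diet effect was 0.48 ± 0.19 (limma adjusted p = 0.0936). Over the 24 libraries left out in turn, the limma adjusted p was 0.0259 to 0.168. It was under 0.05 only without KO Control CT03 replicate 3, KO Control CT15 replicate 1, KO LeuD CT03 replicate 3 or KO LeuD CT15 replicate 1 (0.0259 to 0.0497). EdgeR gave an adjusted p of 0.0833, and limma without the libraries with acinar transcripts 0.0717.

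Slc1a4, the ASCT1 gene, had 435.0, 404.0 and 426.6 normalized counts in WT LeuD livers at CT03, against 279.2, 365.2 and 366.3 in WT Control livers. The groups did not overlap and the log2 change was 0.33 ± 0.14 (limma adjusted p = 0.251). In the other 3 diet comparisons its groups overlapped, and its average diet effect was 0.61 ± 0.25 (limma adjusted p = 0.111). That average was 0.76 without KO Control CT15 replicate 2 (limma adjusted p = 0.0302), 0.42 without KO Control CT15 replicate 1 (adjusted p = 0.14) and 0.33 without the 5 libraries with acinar transcripts (adjusted p = 0.375). Slc38a4 RNA was lower in every LeuD liver than in every Control liver at CT03, in both genotypes. It had 41982, 37654 and 38886 normalized counts in KO LeuD livers, against 52497, 42551 and 60684 in KO Control livers. WT livers at CT03 had Slc38a4 at 33270, 36032 and 31217 on LeuD, against 49994, 36926 and 38132 on Control. Slc38a3 likewise had 36545, 37079 and 44709 in KO LeuD livers at CT03, against 63567, 51302 and 46473 in KO Control livers. Neither Slc38a4 nor Slc38a3 passed the test at CT03, with limma adjusted p-values of 0.414 in KO and 0.34 in WT for Slc38a4 and of 0.37 in KO for Slc38a3. Slc7a2 and Slc43a1 overlapped between diets in all 4 comparisons.

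**Figure D2:**
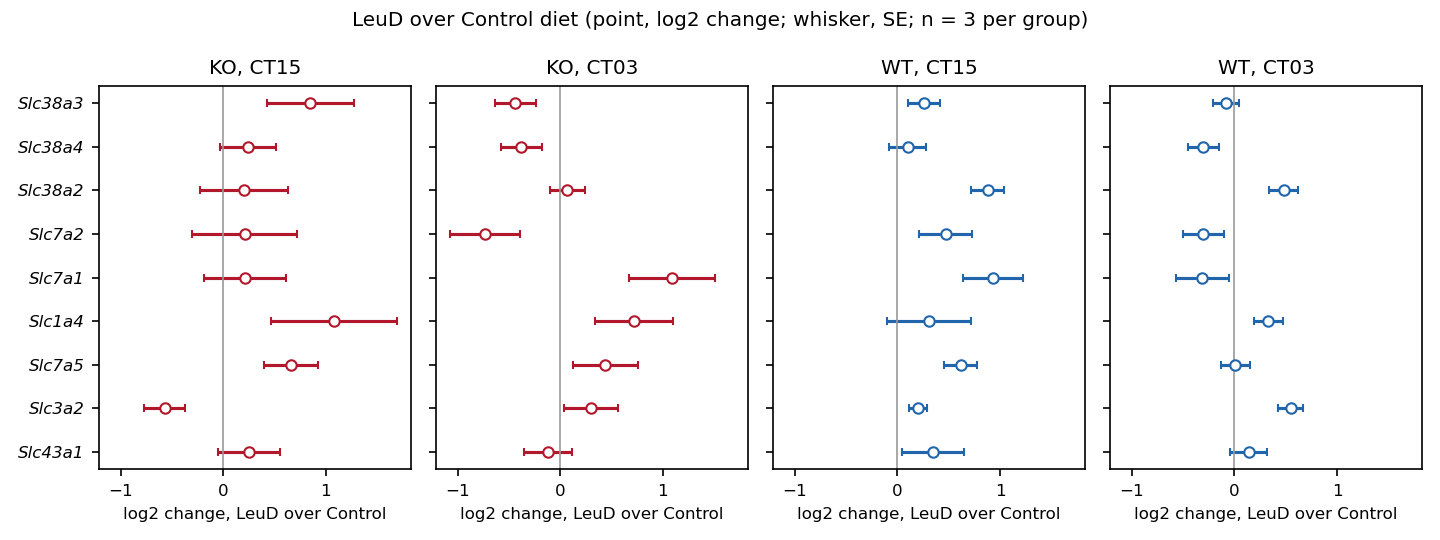
Log2 change of LeuD over Control (horizontal axis) for each transporter gene (vertical axis) in KO at CT15, KO at CT03, WT at CT15 and WT at CT03; points are limma estimates, whiskers their SE, and all points are open because no gene passed an adjusted p of 0.05 (n = 3 per group). All 9 points lie right of 0 in WT at CT15, with Slc7a1 at 0.93 and Slc38a2 at 0.88, and Slc3a2 lies left of 0 at −0.57 in KO at CT15.

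Counted over the members, the LeuD and Control livers did not overlap for 2 of 9 genes in KO at CT15, 2 in KO at CT03, 4 in WT at CT15 and 4 in WT at CT03. The same held for 23.0%, 19.2%, 18.9% and 24.0% of all genes in those comparisons.

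The time comparisons asked how CT15 differed from CT03. In WT livers on LeuD 3 of the 9 genes rose at CT15, the glutamine transporter gene Slc38a3 and the large neutral amino acid transporter genes Slc43a1 and Slc7a5. In this comparison limma called 9.61% of all genes, and edgeR on the recovered reads called 4 of the 9, with Slc38a4 as the fourth. In the other 3 time comparisons limma and edgeR called 0 of the 9. At an unadjusted limma p under 0.05 there were 6 of 9 in KO on LeuD, 0 in KO on Control, 7 in WT on LeuD and 2 in WT on Control, against 16.2%, 12.3%, 25.3% and 17.1% of all genes. Among all genes limma called 0.805% in KO on LeuD, 0.0407% in KO on Control and 1.42% in WT on Control. The CT15 and CT03 livers did not overlap for 4 of 9 genes in KO on LeuD, 0 in KO on Control, 7 in WT on LeuD and 3 in WT on Control. The same held for 21.9%, 19.9%, 31.3% and 23.9% of all genes. The authors' deposited tables called 1 of 9 in KO on LeuD, 0 in KO on Control, 5 in WT on LeuD and 1 in WT on Control, and 5.68%, 13.7% and 6.2% of their genes in KO on LeuD, WT on LeuD and WT on Control.

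Slc38a3 had 73412, 45885 and 81161 normalized counts in KO LeuD livers at CT15, against 36633, 37127 and 45003 at CT03. The KO groups did not overlap, although the lowest CT15 liver and the highest CT03 liver were close, and the log2 change was 0.72 ± 0.27 (limma adjusted p = 0.247). The authors' deposited table gave this KO change of Slc38a3 as 0.76 (adjusted p = 0.0416). In WT LeuD livers Slc38a3 had 72929, 64140 and 74845 at CT15, against 44872, 42370 and 44091 at CT03. The WT LeuD groups were far apart relative to their spread, and Slc38a3 rose by 0.69 ± 0.12 on the log2 scale (limma adjusted p = 0.0114). Without WT LeuD CT15 replicate 1, the library with 4568.3 RPM of acinar markers, the change was 0.66 ± 0.14 (limma adjusted p = 0.0365), and without WT LeuD CT03 replicate 2 it was 0.66 ± 0.15 (limma adjusted p = 0.064). In 1 fit of all 24 libraries, whose spread takes in the KO groups, it was 0.69 ± 0.28 (limma adjusted p = 0.178). On Control, Slc38a3 had 18870, 38791 and 58347 in KO livers at CT15, against 62013, 50094 and 45428 at CT03, and 58139, 53136 and 70221 in WT livers at CT15, against 51319, 43475 and 46188 at CT03. The WT Control livers at CT15 were all above those at CT03, and the KO Control livers overlapped. The time effect on Slc38a3 in KO livers was larger on LeuD than on Control by 1.29 ± 0.51, which did not pass (limma adjusted p = 0.755). It was 0.85 without KO Control CT15 replicate 1 and 0.73 without the libraries with acinar transcripts.

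Slc43a1, the LAT3 gene, was higher in every CT15 than in every CT03 liver in 3 of the 4 time comparisons. It had 345.2, 380.0 and 472.8 normalized counts in KO LeuD livers at CT15, against 255.0, 320.7 and 279.7 at CT03, with a log2 change of 0.48 ± 0.19 (limma adjusted p = 0.262, and 0.27 on the log2 scale without the libraries with acinar transcripts). In KO Control livers it had 212.1, 337.7 and 472.3 at CT15, against 415.6, 236.7 and 275.3 at CT03, which overlapped. In WT LeuD livers it had 519.4, 399.7 and 838.6 at CT15, against 315.8, 218.7 and 202.8 at CT03. Slc43a1 rose there by 1.21 ± 0.27 (limma adjusted p = 0.0301). Without WT LeuD CT15 replicate 1, CT03 replicate 2 or CT03 replicate 3 the adjusted p of that call was 0.0615, 0.112 and 0.0931. In WT Control livers Slc43a1 had 395.4, 353.0 and 632.2 at CT15, against 226.3, 216.9 and 224.5 at CT03, a log2 change of 1.0 ± 0.21 (limma adjusted p = 0.073). The authors' deposited table gave this change in WT Control livers as 1.05 (adjusted p = 0.000944). Averaged over the 4 conditions, the time effect on Slc43a1 was 0.70 ± 0.15 (limma adjusted p = 0.0016), where 24.9% of all genes were called. This average kept an adjusted p under 0.05 without the 5 libraries with acinar transcripts (0.72 ± 0.16, adjusted p = 0.00493).

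**Figure D3:**
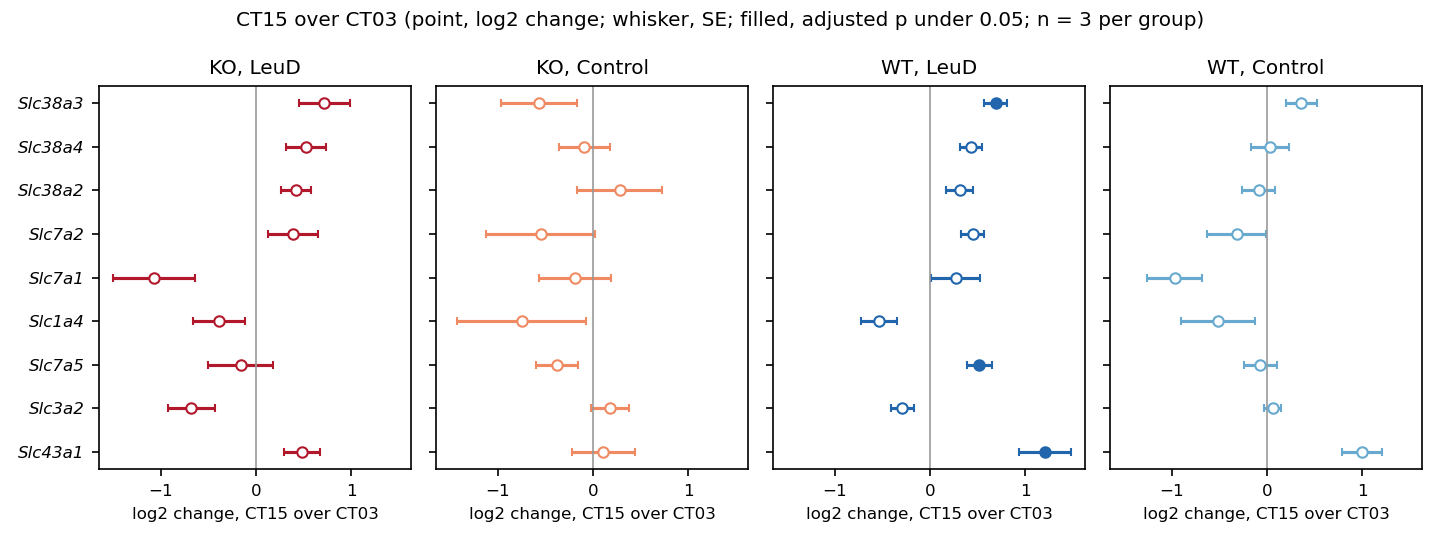
Log2 change of CT15 over CT03 (horizontal axis) for each transporter gene (vertical axis) in KO on LeuD, KO on Control, WT on LeuD and WT on Control; points are limma estimates, whiskers their SE, and filled points passed an adjusted p of 0.05 (n = 3 per group). The filled points are Slc38a3 (0.69), Slc7a5 (0.52) and Slc43a1 (1.21) in WT on LeuD, and Slc43a1 lies at 1.0 in WT on Control.

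Slc7a5 had 155.2, 136.7 and 242.6 normalized counts in KO LeuD livers at CT15, against 287.8, 194.5 and 127.8 at CT03, with overlap. In WT LeuD livers it had 193.6, 209.3 and 196.2 at CT15, against 137.6, 136.4 and 141.4 at CT03. These WT groups were tight and apart, and Slc7a5 rose by 0.52 ± 0.13 (limma adjusted p = 0.0409). That call was lost when any 1 of the 6 libraries was left out, with log2 changes of 0.49 to 0.55 and adjusted p-values of 0.0771 to 0.141, and in 1 fit of all 24 libraries (limma adjusted p = 0.236). On Control, Slc7a5 overlapped between times in both genotypes. The difference of the time effects of Slc7a5 between diets in WT livers, LeuD minus Control, was 0.60 ± 0.19 (limma adjusted p = 0.56) and did not pass.

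Slc7a1, the CAT1 gene, passed in none of the time comparisons. It had 42.7, 45.3 and 24.3 normalized counts in WT Control livers at CT15, against 70.1, 69.5 and 76.4 at CT03. Every CT15 liver was lower, with a log2 change of −0.97 ± 0.29 (limma adjusted p = 0.149). In KO LeuD livers it had 32.4, 50.5 and 78.2 at CT15, against 138.4, 141.8 and 62.9 at CT03, which overlapped (−1.07 ± 0.43, limma adjusted p = 0.272). In WT LeuD livers Slc7a1 had 63.5, 67.3 and 75.7 at CT15, against 49.1, 45.8 and 81.9 at CT03. The time effect in WT livers was higher on LeuD than on Control by 1.24 ± 0.39 (limma adjusted p = 0.56), and the difference of the time effects on LeuD, KO minus WT, was −1.34 ± 0.53 (adjusted p = 0.47); neither passed. Its average time effect was −0.49 ± 0.19 (limma adjusted p = 0.0617). Over the 24 libraries left out in turn, the limma adjusted p was 0.018 to 0.114. It was under 0.05 only without KO Control CT03 replicate 2, KO Control CT15 replicate 1, KO LeuD CT03 replicate 3 or KO LeuD CT15 replicate 3 (0.018 to 0.044). EdgeR gave an adjusted p of 0.0566, and limma without the libraries with acinar transcripts 0.0652.

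None of the remaining transporter genes passed the limma test for time on LeuD. Slc38a4 had 48394, 59135 and 64923 normalized counts in KO LeuD livers at CT15, against 42084, 37703 and 39141 at CT03, with no overlap (0.53 ± 0.21, limma adjusted p = 0.267). In WT LeuD livers it had 48360, 46185 and 43182 at CT15, against 33781, 36778 and 31795 at CT03, also with no overlap (0.43 ± 0.12, limma adjusted p = 0.0543). Slc7a2 had 19247, 15847 and 17313 in WT LeuD livers at CT15, against 11689, 14338 and 12438 at CT03 (0.45 ± 0.12, limma adjusted p = 0.0523). The authors' deposited table gave log2 fold changes of 0.43 for Slc38a4 (adjusted p = 0.0026) and 0.45 for Slc7a2 (adjusted p = 0.00868) in WT LeuD livers. Slc3a2 and Slc1a4 were lower in every WT LeuD liver at CT15. Slc3a2 had 1644, 1781 and 1683 at CT15, against 1837, 1978 and 2470 at CT03 (−0.29 ± 0.12, limma adjusted p = 0.181). Slc1a4 had 260.2, 408.1 and 240.2 at CT15, against 441.7, 412.3 and 434.5 at CT03 (−0.54 ± 0.19, limma adjusted p = 0.123). In KO LeuD livers Slc3a2 had 1220, 1293 and 1031 at CT15, against 2488, 2154 and 1250 at CT03. One CT03 liver fell inside the CT15 range, and the log2 change was −0.68 ± 0.25 (limma adjusted p = 0.25). It was −0.98 without that liver, KO LeuD CT03 replicate 3 (limma adjusted p = 0.0258), and −0.39 without the libraries with acinar transcripts (adjusted p = 0.862). Slc38a2 had 3880, 4980 and 3990 in KO LeuD livers at CT15, against 3425, 2738 and 3440 at CT03, with no overlap (0.42 ± 0.16, limma adjusted p = 0.266), and in WT LeuD livers its groups overlapped.

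The genotype comparisons asked what the loss of GCN2 changed. No transporter gene passed in any of them. On LeuD, limma called 0 of 9 genes at CT15 and 0 at CT03, with 1 and 1 at an unadjusted p under 0.05 (edgeR 0 and 0). Among all genes it called 1.89% at CT15 and 0.0416% at CT03, with 18.7% and 13.7% at an unadjusted p under 0.05. On Control, limma called 0 of 9 at CT15 and 0 at CT03, with 0 and 2 at an unadjusted p under 0.05 (edgeR 0 and 0). Among all genes it called 0.0798% and 0.0136%, with 5.5% and 8.2% at an unadjusted p under 0.05. Slc3a2 had 1240, 1300 and 1042 normalized counts in KO LeuD livers at CT15, against 1620, 1757 and 1658 in WT LeuD livers. Every KO liver was lower, with a log2 difference of −0.50 ± 0.13 (limma adjusted p = 0.0879). Slc38a4 was higher in every KO than in every WT liver on LeuD at both times. At CT15 it had 49201, 59446 and 65636 in KO, against 47648, 45572 and 42545 in WT livers, and at CT03 42405, 37962 and 39392 in KO, against 33281, 36204 and 31303 in WT livers. These Slc38a4 differences did not pass, with limma adjusted p-values of 0.301 at CT15 and 0.497 at CT03. KO and WT livers did not overlap for 2 of 9 genes on LeuD at CT15 and 1 on LeuD at CT03. On Control this held for 0 of 9 at CT15 and 1 at CT03. The share of all genes with such a separation by genotype is not given here, so these separations are no test of a difference.

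Slc7a1 had 139.5, 142.8 and 63.3 normalized counts in KO LeuD livers at CT03, against 48.4, 45.1 and 80.6 in WT LeuD livers. A pair of the KO livers was above all WT livers and the other was not, with a log2 difference of 0.94 ± 0.38 (limma adjusted p = 0.35). Without that low liver, KO LeuD CT03 replicate 3, the difference was 1.32 (limma adjusted p = 0.0286). Over all libraries left out in turn it was 0.74 to 1.32, with limma adjusted p-values of 0.0286 to 0.73. Slc1a4 had 130.9, 297.0 and 141.9 in KO Control livers at CT03, against 269.5, 352.4 and 352.3 in WT Control livers (−0.86 ± 0.31, limma adjusted p = 0.581). Slc43a1 had 411.7, 234.6 and 272.6 there in KO, against 212.2, 201.4 and 209.0 in WT livers, with no overlap (0.52 ± 0.21, limma adjusted p = 0.606, and 0.28 to 0.69 on the log2 scale with 1 library left out). Averaged over diets and times, 0 of 9 genes were called for genotype by limma and 0 by edgeR, where 2.48% of all genes were, and 2 of 9 had an unadjusted p under 0.05, against 17.7% of all genes. Those were Slc1a4 (−0.68 ± 0.25, adjusted p = 0.154) and Slc38a4 (0.28 ± 0.10, adjusted p = 0.151). Without KO Control CT15 replicate 2 both passed, at −0.83 (adjusted p = 0.0478) for Slc1a4 and 0.35 (adjusted p = 0.0403) for Slc38a4. Without KO Control CT15 replicate 1 they were −0.49 (limma adjusted p = 0.203) and 0.24 (adjusted p = 0.229), and without the libraries with acinar transcripts −0.56 (adjusted p = 0.298) and 0.19 (adjusted p = 0.529).

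The differences between effects called none of the 9 genes with limma or edgeR. At an unadjusted limma p under 0.05 there were 1 of 9 for diet by genotype at CT15 and 1 at CT03, 2 for time by diet in KO and 3 in WT, and 1 for time by genotype on LeuD and 0 on Control. The shares of all genes at that p were 12.1%, 13.2%, 6.5%, 6.6%, 9.4% and 5.1%. Among all genes tested, limma called 0.0206%, 0.0%, 0.0%, 0.00686%, 0.0207% and 0.0275% in those 6 differences. The diet effect on Slc7a1 at CT03, KO minus WT, was 1.40 ± 0.52 (limma adjusted p = 0.33), and without KO LeuD CT03 replicate 3 it was 1.79 (limma adjusted p = 0.0409). Over all libraries left out in turn it was 1.17 to 1.79, with limma adjusted p-values of 0.0409 to 0.59. The difference of the time effects on Slc3a2, LeuD minus Control, was −0.86 ± 0.35 in KO (limma adjusted p = 0.755) and −0.35 ± 0.15 in WT livers (limma adjusted p = 0.717).

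One liver, KO Control CT15 replicate 1, stood at the edge for several of these genes. It had the highest Slc38a2 (7995 normalized counts) and the lowest Slc38a3 (19631) and Slc1a4 (37.5) of all 24 libraries, and 714.3 RPM of acinar markers. Comparisons that hold it moved without it. The diet effect in KO livers at CT15 was 0.85 ± 0.42 for Slc38a3, 0.20 ± 0.43 for Slc38a2 and 1.08 ± 0.61 for Slc1a4, and without it 0.40 ± 0.31, 0.75 ± 0.19 and 0.32 ± 0.28, with limma adjusted p-values of at least 0.1 throughout. The genotype effect on Slc38a2 on Control at CT15 was 0.67 ± 0.46 with it and 0.12 ± 0.22 without it. The time effect on Slc38a3 in KO Control livers was −0.57 ± 0.40 with it and −0.13 ± 0.25 without it. Averaged over the 4 conditions, the time effect on Slc38a3 was 0.30 ± 0.14 with it (limma adjusted p = 0.123) and 0.41 without it (limma adjusted p = 0.00581).

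Within groups, Slc7a2, Slc38a4 and Slc38a2 varied together, and Slc1a4 varied against them. Each library was set against the mean of its own group on the log2 scale, and Pearson correlations over the 24 libraries are given as a description of shared variation, since the libraries share their group means and size factors. In values given without KO Control CT15 replicate 1, only its own point was dropped. The mean of its group still held it, so its mates kept deviations from a mean that it moved. Slc7a2 deviated with Slc38a4 (r = 0.89, and 0.89 without KO Control CT15 replicate 1) and with Slc38a2 (r = 0.78, and 0.69 without it). Slc1a4 deviated against Slc7a2 (r = −0.86, and −0.81 without it), Slc38a2 (r = −0.76, and −0.62) and Slc38a4 (r = −0.69, and −0.64). Slc38a3 deviated with Slc43a1 (r = 0.68, and 0.60 without it) and Slc7a1 with Slc7a5 (r = 0.67, and 0.71). LAT1 and its heavy chain gene, Slc7a5 and Slc3a2, had r = 0.48. Of all 36 pairs of the 9 genes, 5 had r over 0.6 and 4 under −0.6. Among the latter, Slc38a2 with Slc38a3 had r = −0.61, and −0.31 without KO Control CT15 replicate 1. The summed level of 8 periportal hepatocyte genes, among them Pck1 and Sds, deviated with Slc38a4 (r = 0.86) and Slc7a2 (r = 0.80) and against Slc1a4 (r = −0.51). Its r was 0.53 with Slc38a2, 0.49 with Slc7a1, 0.46 with Slc7a5 and 0.35 with Slc3a2. With Slc38a3 and Slc43a1 it was −0.11 and −0.05. The summed level of 8 pericentral genes had r between −0.48 and 0.18 with the 9 transporters. The acinar markers deviated most with Slc7a5 (r = 0.69). The part of zonation or of acinar tissue in these correlations was not tested.

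**Figure D4:**
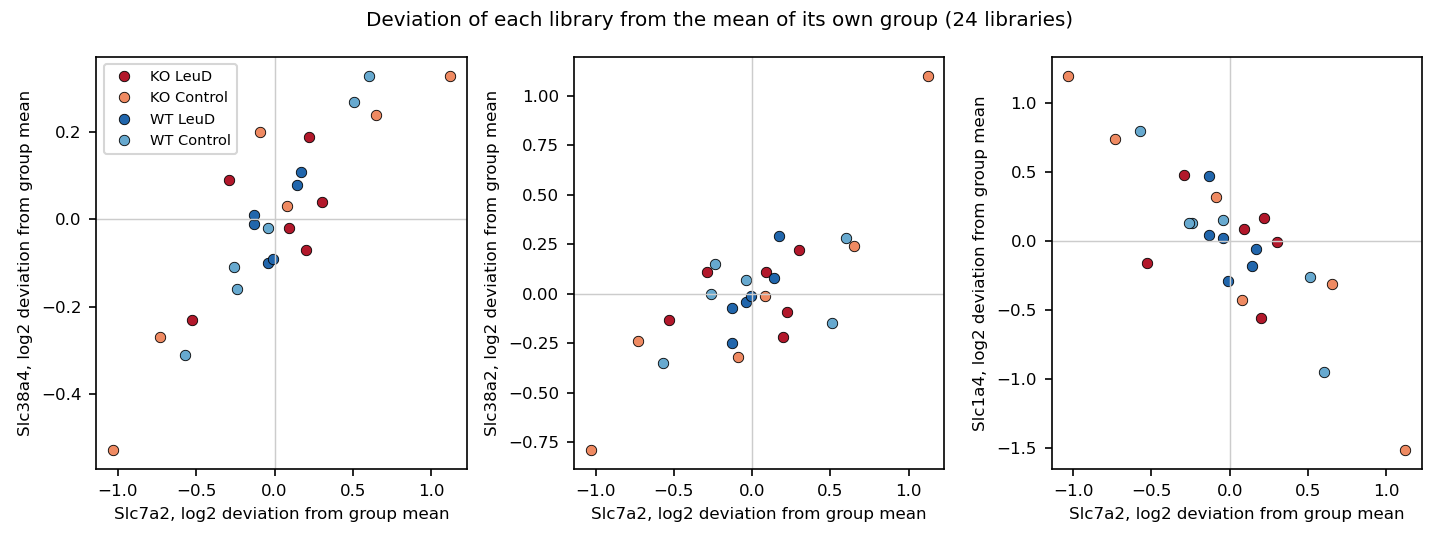
Log2 deviation of each of 24 libraries from the mean of its own group, for Slc7a2 (horizontal axes) against Slc38a4, Slc38a2 and Slc1a4 (vertical axes); colours mark genotype and diet. The points rise to the right for Slc38a4 (r = 0.89) and Slc38a2 (r = 0.78) and fall for Slc1a4 (r = −0.86), and the KO Control livers lie farthest out.

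For each transporter the genes most alike over the 24 libraries were taken by Pearson correlation of log2(normalized count + 1), as a description, among genes with a mean of at least 50 normalized counts. Slc7a2 was most like Pck1, which encodes the gluconeogenic enzyme PEPCK (r = 0.83), and Pnpla2, which encodes a triglyceride lipase (r = 0.83). Slc38a4 was most like Pros1, the gene of protein S (r = 0.89), and Sds, the gene of serine dehydratase (r = 0.85). Slc1a4 was most like Yars, a tyrosyl-tRNA synthetase gene (r = 0.83), and Kyat1, a kynurenine aminotransferase gene (r = 0.81). Slc7a5 was most like Rap1gap (r = 0.82) and the stress gene Nupr1 (r = 0.81), and Slc38a2 like Dennd5b (r = 0.86) and the elongation factor gene Ell2 (r = 0.85). Mpv17l was among the genes most like Slc38a3 (r = 0.86). Slc3a2 was most like Ttc41 (r = 0.81) and Ankhd1 (r = 0.81), Slc43a1 like Tchh (r = 0.81) and Ngef (r = 0.80), and Slc7a1 like Ofd1 (r = 0.80) and Ift57 (r = 0.77).

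Other amino acid transporters, 32 in a list of which 24 were listed in a table, were called in a few comparisons. For time in WT LeuD livers 3 of 23 tested rose and 1 fell at CT15, where limma called 9.61% of all genes. Slc1a5, the ASCT2 gene, averaged 218.0 ± 48.5 normalized counts at CT15 and 111.8 ± 15.6 at CT03 (0.94 ± 0.21, limma adjusted p = 0.0269). Slc1a2, the gene of the glutamate transporter GLT-1, rose by 0.66 ± 0.14 and Slc43a3 by 0.65 ± 0.11, and Slc7a8, the gene of the LAT1 relative LAT2, fell by 0.62 on the log2 scale. For genotype on LeuD at CT15, Slc1a2 averaged 2533 ± 858 in KO and 8389 ± 1522 in WT livers (−1.76 ± 0.23, limma adjusted p = 0.0146). This was the 1 call among 23 tested, where limma called 1.89% of all genes. Slc1a2 was also lower in KO on LeuD at CT03 (−1.44 ± 0.25, limma adjusted p = 0.133). On Control it was lower by −0.70 ± 0.18 at CT15 (limma adjusted p = 0.791) and −0.53 ± 0.15 at CT03 (adjusted p = 0.544). None of these passed. Within the 4 single diet comparisons limma and edgeR called 0 of the tested genes of this list. There were 4 to 6 at an unadjusted limma p under 0.05, against 13.0% to 17.8% of all genes. In the average diet effect, where 13.9% of all genes were called, limma called 3 of 23 and edgeR 3. Slc1a5 (0.61 ± 0.14, limma adjusted p = 0.00525) and Slc3a1, the gene of the heavy chain rBAT (0.74 ± 0.17, adjusted p = 0.00611), were higher on LeuD. The taurine transporter gene Slc6a6 was lower (−0.34 ± 0.09, limma adjusted p = 0.0171). In the average time effect, where 24.9% of all genes were called, limma called 4 of 23 higher and 3 lower at CT15.

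ISR genes other than transporters, 28 of 28 listed, show the response of the same livers to the diet. In KO livers limma and edgeR called 0 of 28 at either time, with 10 at CT15 and 15 at CT03 at an unadjusted limma p under 0.05 (16.0% and 14.6% of all genes) and median log2 changes of 0.28 and 0.68. In WT livers at CT15 limma called 3 higher on LeuD, with a median log2 change of 0.49: Asns, which makes asparagine (2.05 ± 0.20, adjusted p = 0.0245), Psat1, of serine synthesis (2.32 ± 0.25, adjusted p = 0.0262), and the hormone gene Fgf21 (3.02 ± 0.37, adjusted p = 0.0336). In WT livers at CT03 limma called 5 higher, with a median of 0.52: Atf5, Psat1, Trib3, Mthfd2 and Cebpg, by 0.62 to 2.62. In WT livers 12 of the 28 at CT15 and 11 at CT03 had an unadjusted limma p under 0.05, against 13.0% and 17.8% of all genes. EdgeR called 2 of 28 in WT at CT15 and 5 in WT at CT03. Over all genes limma called 0.0202% in KO at CT15 and 0.0% in KO at CT03. It called 0.186% in WT at CT15 and 2.24% in WT at CT03, and the median log2 change over all genes was −0.01 to 0.00. In the average diet effect, where 13.9% of all genes were called, limma called 14 of the 28 higher and 1 lower on LeuD, and edgeR called 15.

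The promoters of 6 of the 9 genes (Slc7a1, Slc3a2, Slc38a2, Slc38a4, Slc1a4 and Slc43a1) were found in RefSeq's table for GRCm38.p6, as 9 windows from 250 bases before to 50 after a transcript start. These windows were searched on both strands for TGATGNAA, the letters of the C/EBP-ATF response element without its last base, for the E-box CACGTG and for TTATGNAA, letters of the D-box core. TGATGNAA was in 1 of the 9 windows, that of Slc1a4, and in 3.97% of 32851 windows of all genes. CACGTG was in 1 of the 9, that of Slc43a1, and in 7.15% of all windows, and TTATGNAA was in 0 of the 9 and in 3.38% of all. The stretches around both matches are shown because they hold the letters of elements tied to the ISR and to the clock; capitals mark the match, and on Slc1a4 it reads as the reverse complement. Counted with the start base as 0, the Slc1a4 match lies at −4 to 3 on chr11:20332694-20332793 (minus strand) and the Slc43a1 match at −64 to −59 on chr2:84840223-84840322 (plus strand). A match is a description of letters, not of binding.
Slc1a4: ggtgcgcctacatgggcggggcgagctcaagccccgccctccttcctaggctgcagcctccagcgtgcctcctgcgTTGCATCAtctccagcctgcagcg
Slc43a1: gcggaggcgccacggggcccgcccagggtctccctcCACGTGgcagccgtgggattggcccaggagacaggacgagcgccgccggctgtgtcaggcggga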

How the data were processed

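RNA of 24 mouse livers was enriched on oligo(dT) and made into libraries with a kit that does not mark strand, per the labels' protocols. Per the submitters' processing notes, the build was GRCm39 and the tools included STAR 2.5.2b, Trimmomatic 0.36, DESeq2, DESeq, Subread 1.5.2 and featureCounts; for their roles and settings, and the annotation, nothing is given in the sources used here. The authors deposited 10 tables of 6 libraries, with log2 fold changes and p-values and, as a signal, gene counts divided by a size factor set in each table. In the 58 library columns used for reads, 100.0% of 862439 values were whole reads to within 0.01, and 0 reads differed between tables of 1 library. A further 2 columns were set aside beforehand and are not in these counts. Genotype on LeuD is in no table and used size factors over all 24 libraries (14420 genes). The main test, run per table, was limma 3.58.1 (2-sided, with a trend, pseudocount 1). Differences of effects used 12 libraries and genes with a mean of at least 10. Averages over 4 conditions (all 24 libraries) were added after values were seen. EdgeR 4.0.16 on recovered reads was an alternative. Fold changes on this scale understate those of low genes. The labels give biological replicates; within groups, the chi-square of mates over its degrees of freedom was 34.3 or more. Lengths are exon unions of GENCODE vM21 on GRCm38. All 9 members, the lowest-p genes (up to 4) of both lists, the 2 genes most alike and Eif2ak4 were named by rule; 1 of the genes most alike is not reported here. Members and lists were chosen with earlier results of these data known.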

Additional observations from a re-analysis of the deposited data

How the results depend on the processing

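Of 53 effects on the 9 genes, recomputed to 969 values under the alternatives (pseudocount, filter, TMM scaling, edgeR, replicate block, 1 fit of all libraries, libraries left out), 927 values kept direction and call, 16 lost a call, 24 gained one and 2 reversed: Slc38a2 for diet in KO at CT15 was −0.03 with edgeR and −0.19 to 0.75 with libraries left out. For time in WT LeuD, 3 members were called, but 1 under the replicate block (Slc38a3), 1 in the fit of all 24 libraries (Slc43a1), 1 without the acinar libraries (Slc38a3) and 0 to 3 with libraries left out. Slc7a5 was not called when any 1 library was left out, and the count of 3, without WT LeuD CT15 replicate 2, took in Slc1a4 (−0.78, adjusted p = 0.0171). Time in KO LeuD gained 1 in the fit of 24 libraries and 0 to 1 with libraries left out. With libraries left out, members called were 0 to 1 for diet in WT at CT03 and at CT15, 0 to 2 for genotype on LeuD at CT03, 0 to 1 for diet by genotype at CT03, 1 to 3 for the average diet and the average time effect and 0 to 2 for the average genotype effect; the average diet effect called 2 without the acinar libraries. The causes were not tested. No pairing of mice by replicate number was seen: in no comparison did all 3 same-numbered pairs correlate above 0.1. With 3 libraries per group this check cannot show that the mice were unpaired. The replicate block changed no limma call beyond those of Slc7a5 (adjusted p = 0.112) and Slc43a1 (adjusted p = 0.0652) for time in WT LeuD. Depth limits Slc7a1 most.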
